A study of Mus musculus with 4 samples.

Results

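The genes described here encode the receptor chains of interleukin 4 and interleukin 13 together with both ligands, in cultured mouse vascular smooth muscle cells. Members were taken by gene name: Il4ra, Il13ra1, Il13ra2, Il2rg, Il4 and Il13. Each had 1 named probe set, so the family comprised 6 of the 1246 probe sets in the data. A further 283 probe sets had no gene name here and could not be assigned. The family was chosen partly on its measured levels, treatment differences and culture differences in these same data, so its values are given as a description and no test is read for a member. Vascular smooth muscle cells (VSMC) are the contractile cells of the artery wall. The wild-type cells of all 4 arrays were grown in osteogenic medium, a culture condition under which VSMC take on a bone-like state. The titles of these arrays also share a short code, possibly a time, which was not interpreted. In the streptozotocin group (2 arrays) the cells also received 0.4 mM streptozotocin (STZ), a glucosamine-containing nitrosourea toxic to pancreatic beta cells, and the control group (2 arrays) did not receive it. Each group held 1 array of a cell sample named WTA (replicate 2) and 1 of a cell sample named WT2 (replicate 1), called cultures below. Whether these were cells of separate animals is not said in the labels, and each culture contributed 1 array per treatment.

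Interleukin 4 and interleukin 13 are the main cytokines of type 2 immunity, made chiefly by lymphocytes, mast cells and basophils. Interleukin 4 binds the chain encoded by Il4ra, which then pairs either with the common gamma chain (Il2rg) in the type I receptor, typical of blood cells, or with Il13ra1 in the type II receptor, typical of non-haematopoietic cells such as smooth muscle and fibroblasts. Interleukin 13 signals through the type II receptor, and both receptors activate STAT6. Il13ra2 binds interleukin 13 with high affinity, has a short cytoplasmic tail and is best known as a decoy.

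Values are log2 RMA values, on which 1 unit is a 2-fold difference. The array medians lay between 5.83 and 5.87 and the lower quartiles between 4.39 and 4.40. Pearson correlations across probe sets (genes are not independent replicates) were 0.997 between the WTA arrays and 0.988 between the WT2 arrays. They were lowest, at 0.977 and 0.982, between the WT2 control array and the WTA arrays. An array stood alone when it lay at least 1.5-fold above or below each of the other 3. This held for 88 of 1246 probe sets (7.06%). Most often it was the WT2 control array below the others (33 probe sets, 2.65%), then the WT2 streptozotocin array above them (23 probe sets, 1.85%). None of the 9 smooth muscle markers looked for had a named probe set, so the cell identity was not checked. The data are from bulk RNA, in which fewer cells of a type and less RNA per cell cannot be told apart.

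The ligands were dim on each of the 4 arrays and differed little. Il4 had log2 values of 4.09 in WTA and 4.07 in WT2 with streptozotocin, against 3.93 in WTA and 4.07 in WT2 without it. Il13 had log2 values of 4.50 in WTA and 4.64 in WT2 with streptozotocin, and 4.53 in WTA and 4.55 in WT2 without it. Il4 lay below the lower quartile on each array, and Il13 just above it. The arrays of each ligand spanned at most 0.16 on the log2 scale. Values this low hold background as well as signal, so a small change in either ligand was not detectable. For Il4 both streptozotocin arrays were above both control arrays, in WT2 by less than 0.01. It was the 1 member whose streptozotocin and control arrays did not overlap, which 24.6% of all probe sets shared.

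Il2rg, the common gamma chain of the type I receptor, was flat. Its log2 values were 5.42 in WTA and 5.39 in WT2 with streptozotocin, and 5.57 in WTA and 5.33 in WT2 without it. All 4 arrays stood within 0.24 of each other, slightly below their array medians, at percentiles 43.7 to 47.0 of the probe sets of their array. The groups overlapped, and the streptozotocin difference was -0.15 in WTA and 0.06 in WT2.

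Il4ra, the chain that both receptor types need to signal for interleukin 4, was bright in WTA with and without the compound, and lower in WT2. Its log2 values with streptozotocin were 8.29 in WTA and 7.54 in WT2. In control cells they were 8.31 in WTA and 6.13 in WT2. The WTA arrays were alike, and the WT2 control array was the low one, standing 1.41 below the next array. In order of level, the arrays ran from WT2 control through WT2 with streptozotocin to the WTA pair, whose members were 0.02 apart. Streptozotocin minus control was therefore -0.02 in WTA and 1.41 in WT2 (2.66-fold higher), and the treatment groups overlapped. The group means were 7.91 ± 0.53 with streptozotocin and 7.22 ± 1.54 without it (SD, n = 2 each), a difference of 0.69 that lies within the spread of the control arrays. Without the WT2 control array the difference was -0.40.

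Il13ra1, which completes the type II receptor, was also lower on the WT2 control array, by a smaller margin. Its log2 values with streptozotocin were 7.10 in WTA and 7.69 in WT2. In control cells they were 7.49 in WTA and 6.46 in WT2. That array was the lowest by 0.64, while the WT2 streptozotocin array was the highest, by 0.20. Streptozotocin minus control was -0.39 in WTA and 1.23 in WT2 (2.35-fold higher). The group means were 7.40 ± 0.42 with streptozotocin and 6.98 ± 0.73 without it (SD, n = 2 each), and the groups overlapped. Without the WT2 control array the difference of means was -0.09, against 0.42 with all arrays. The suffix of this probe set's identifier can mark probes shared between transcripts or genes, so its value is less certain.

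Il13ra2, the decoy chain, was dim on 3 arrays and well above them on 1. Its log2 values with streptozotocin were 4.02 in WTA and 6.68 in WT2. In control cells they were 4.19 in WTA and 4.10 in WT2. The WT2 streptozotocin array stood 2.49 above the next, the second largest such gap of the 1246 probe sets, and the other 3 arrays lay within 0.17 of each other. On those 3 the probe set sat below the lower quartile, at percentiles 18.9 to 22.4 of the array, and on the WT2 streptozotocin array at percentile 58.3. Streptozotocin minus control was -0.17 in WTA and 2.58 in WT2 (5.99-fold higher). Only 1 probe set of the 1246 had a larger positive difference in WT2. Background holds part of the low values, so the size of the difference is uncertain. The group means were 5.35 ± 1.89 with streptozotocin and 4.14 ± 0.06 without it (SD, n = 2 each), and the groups overlapped. Without the WT2 streptozotocin array the difference was -0.13 in place of 1.20.

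**Figure D1:**
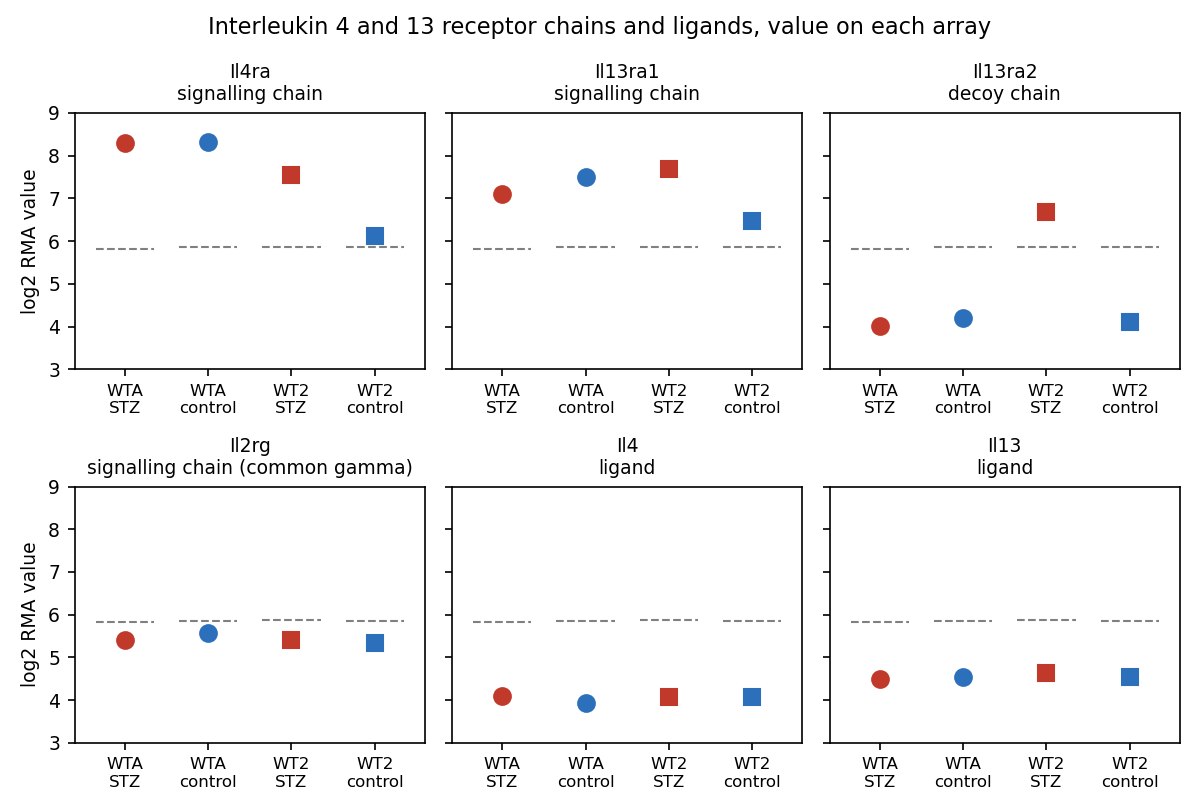
Log2 RMA value of the 6 genes on each of the 4 arrays (circles WTA, squares WT2, red streptozotocin, blue control), with the median of all probe sets of that array as a dashed line. Il4ra (6.13) and Il13ra1 (6.46) are lowest on the WT2 control array, Il13ra2 (6.68) is high on the WT2 streptozotocin array alone, and Il2rg, Il4 and Il13 stay within 0.24.

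Streptozotocin was first set against control, to ask which genes respond to it in calcifying VSMC. Across all probe sets limma's fit without a block called 0 of 1246 at an adjusted p under 0.05 (0%), and thus 0 of the 6 members. At an unadjusted p under 0.05 it called 25, of which 0 were members. Limma also called 0 when each culture's arrays were paired (replicate block). Within the cultures, with 1 array per arm and no test, 0 members moved 1.5-fold in WTA, where 0.642% of all probe sets were at least that much higher and 1.69% lower. In WT2, Il4ra, Il13ra1 and Il13ra2 were at least 1.5-fold higher and 0 members were lower, while over all probe sets 4.82% were higher and 2.49% lower. These counts follow from the choice of the family and nothing is read from them. The median over the 6 members was -0.09 in WTA and 0.67 in WT2, beside 0.00 in WTA and -0.02 in WT2 over all probe sets. The signs were opposite in WTA and WT2 for 5 of the 6 members, Il4 being the other, and for 47.7% of all probe sets.

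Il13ra2 and the chains of the type II receptor thus had higher values with streptozotocin in the same culture, WT2, but a different array stood apart. For Il13ra2 the 2 control arrays were 0.09 apart and the treated WT2 array was the one that stood off. For Il4ra and Il13ra1 the untreated WT2 array was the one that stood off, by 1.41 and 0.64. The treated WT2 array was itself more than 1.5-fold from the treated WTA array, 0.75 below it for Il4ra and 0.60 above it for Il13ra1. For Il13ra1 the remaining arrays spanned 0.60, nearly as much as the gap of 0.64. A deviation of either WT2 array cannot be told apart from a difference in its cells, since each culture had 1 array per treatment.

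**Figure D2:**
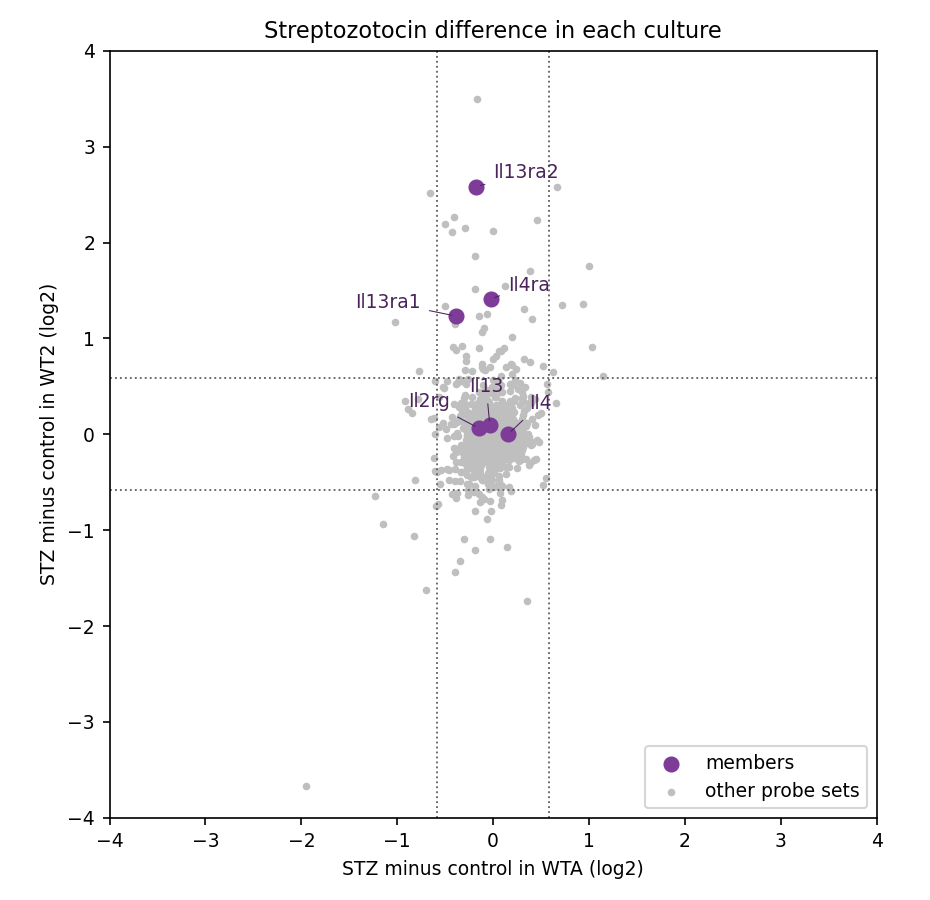
Streptozotocin minus control on the log2 scale in WTA (horizontal) and in WT2 (vertical) for the 6 members (purple) and the other probe sets (grey), with dotted lines at a 1.5-fold difference. Il13ra2 (2.58), Il4ra (1.41) and Il13ra1 (1.23) lie above the upper line in WT2 and between the lines in WTA, and the other 3 lie near the centre.

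The second comparison set the cultures against each other. Among control cells, WTA exceeded WT2 by 2.18 for Il4ra (4.54-fold) and by 1.03 for Il13ra1 (2.04-fold), while Il13ra2 differed by 0.09. At least 1.5-fold higher in WTA were thus 2 of 6 members, against 6.34% of all probe sets, and 0 were lower, against 4.82%. Among streptozotocin-treated cells the order was another. WTA minus WT2 was 0.75 for Il4ra, -0.60 for Il13ra1 and -2.67 for Il13ra2, so 1 member was at least 1.5-fold higher in WTA (4.01% of all probe sets) and 2 were lower (6.26%). The difference for Il13ra1 is close to the 1.5-fold line. The member counts under both treatments follow from the choice of the family, and nothing is read from them. Il4ra was the 1 receptor chain that was higher in WTA under both treatments by more than 1.5-fold. Il2rg differed by 0.02 with streptozotocin and 0.24 without. The cultures did not overlap for Il4ra, Il2rg and Il13, as for 49.0% of all probe sets. In limma's fit with treatment and culture, 28 of 1246 probe sets (2.25%) passed an adjusted p of 0.05 and 0 of the 6 members did, with 1 residual degree of freedom. That fit called 210 of 1246 probe sets at an unadjusted p under 0.05, and no call of a member is read from it.

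The 250 bases before the annotated start of the 3 receptor genes that differed in WT2 are shown. In composition, Il13ra2 differs there from Il4ra and Il13ra1. The window of Il2rg, also a signalling chain, was not examined. They are RefSeq sequences of build GRCm38.p6, written 5′ to 3′ on the gene's strand. Capitals mark matches on either strand to the GC box (GGGCGG), the TATA box (TATAAA) and the AP-1 site (TGANTCA). The Il4ra window is chr7:125552021-125552270 (plus strand), that of Il13ra1 is chrX:36111858-36112107 (plus strand) and that of Il13ra2 is chrX:147429193-147429442 (minus strand).
Il4ra: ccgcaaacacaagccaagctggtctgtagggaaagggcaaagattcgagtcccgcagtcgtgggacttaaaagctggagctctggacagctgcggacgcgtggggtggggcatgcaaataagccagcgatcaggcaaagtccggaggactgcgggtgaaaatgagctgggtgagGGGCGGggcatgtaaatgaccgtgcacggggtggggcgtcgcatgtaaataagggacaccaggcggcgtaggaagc
Il13ra1: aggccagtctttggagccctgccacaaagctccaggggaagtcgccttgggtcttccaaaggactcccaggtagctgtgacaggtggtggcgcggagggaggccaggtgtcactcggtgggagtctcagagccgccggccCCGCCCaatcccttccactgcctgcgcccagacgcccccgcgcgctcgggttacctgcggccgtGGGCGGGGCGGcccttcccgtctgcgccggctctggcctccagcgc
Il13ra2: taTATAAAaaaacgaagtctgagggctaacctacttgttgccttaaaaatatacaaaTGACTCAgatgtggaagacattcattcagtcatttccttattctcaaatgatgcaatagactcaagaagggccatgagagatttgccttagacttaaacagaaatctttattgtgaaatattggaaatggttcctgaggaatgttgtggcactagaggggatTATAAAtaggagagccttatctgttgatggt

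The windows of Il4ra and Il13ra1 held 59.6% and 70.8% G and C, more than 71.1% and 91.7% of all windows, with 17 and 21 CpG dinucleotides. That of Il13ra2 was 36.0% G and C with 1 CpG, and only 5.81% of the 32851 windows of the table, whose median was 52.4%, had less. A GC box occurred once before Il4ra and 3 times before Il13ra1, where the last 2 share 1 base, and 0 times before Il13ra2. It was present in 32.7% of all windows. Before Il13ra2 a TATA box began 31 bases ahead of the start and another at the far end of the window, and 12.4% of all windows held one. The same window held 1 AP-1 site, found in 6.75% of all windows. The STAT6 site (the letters TTC and GAA with any 4 bases between, in 5.85% of all windows) and the shorter STAT site (any 3 bases between, in 7.02%) had 0 matches in the 3 windows, which says only that these letters are not in them. A match is a description of the sequence, and binding was not measured.

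**Figure D3:**
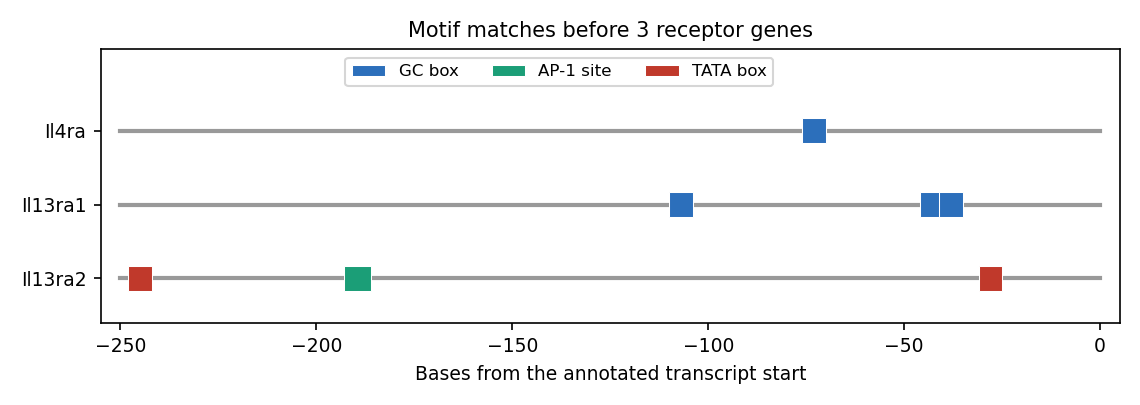
Matches to the GC box, the AP-1 site and the TATA box along the 250 bases before the annotated start of Il4ra, Il13ra1 and Il13ra2, with distance from the start in bases on the horizontal axis. Il4ra has 1 and Il13ra1 3 GC boxes, and Il13ra2 has 2 TATA boxes and 1 AP-1 site.

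For the 2 members with the widest range over the arrays, the genes of nearest pattern were found by the Euclidean distance between log2 values centred on their mean over the 4 arrays. Nearest to Il13ra2 were Wnt4, a Wnt ligand (distance 0.32), Cxcl5, a chemokine that attracts neutrophils (0.57), and Ackr4, a scavenging receptor for chemokines (0.75). Their WT2 streptozotocin arrays stood at 8.69, 8.73 and 8.67, and for Wnt4 and Cxcl5 the other 3 arrays lay between 6.21 and 6.86. Ackr4, unlike Il13ra2, was also higher with streptozotocin in WTA, by 0.67 (6.89 against 6.22), and its WT2 control array stood at 6.09. Near to Il4ra were Icam1, an adhesion molecule for leukocytes (0.18), and Thbd, the thrombin cofactor thrombomodulin (0.35). Icam1 had log2 values of 9.93 in WTA and 9.28 in WT2 with streptozotocin, and 9.80 in WTA and 7.73 in WT2 without it. With 4 arrays such likeness rests largely on the 1 array that stands off.

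**Figure D4:**
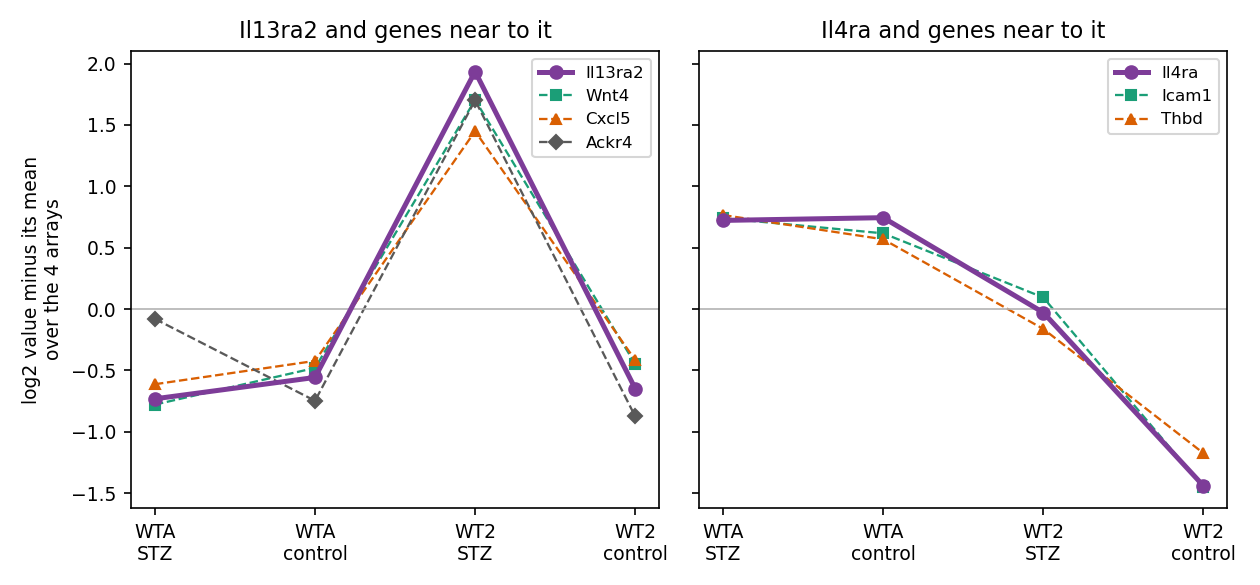
Log2 values minus their mean over the 4 arrays for Il13ra2 with Wnt4, Cxcl5 and Ackr4 (left) and for Il4ra with Icam1 and Thbd (right). The left profiles peak on the WT2 streptozotocin array, and the right ones are lowest on the WT2 control array.

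Of the genes around this pathway, the Janus kinases, STATs, adaptors and inhibitors had 0 of 18 listed genes with a named probe set. Genes known to respond to interleukin 4 or 13 had 17 of 28 measured, and limma called 0 of them for streptozotocin in either direction. Past 1.5-fold, 1 was higher and 2 were lower in WTA, while 3 were higher and 1 was lower in WT2. Over all probe sets the shares were 0.642% higher and 1.69% lower in WTA, and 4.82% higher and 2.49% lower in WT2. Their median streptozotocin difference was -0.00 in WTA and -0.03 in WT2. The largest mean differences among the brighter genes were those of Ccl7, a monocyte chemokine, at 0.45 in WTA and 2.24 in WT2, and Igf1, a growth factor, at -1.23 in WTA and -0.64 in WT2. Ccl11, the eosinophil attractant eotaxin, which smooth muscle is known to make in response to both cytokines, differed by -0.78 in WTA and 0.66 in WT2. It had log2 values of 6.17 in WTA and 7.25 in WT2 with streptozotocin, against 6.94 in WTA and 6.59 in WT2 without it. Ccl8, of the same list, was more than 1.5-fold higher in both cultures, by 1.15 in WTA and 0.61 in WT2. Igf1 was more than 1.5-fold lower in both. The rule selected neither Ccl11 nor Ccl8, and both were picked with their values known.

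Other cytokines and receptors of the common gamma chain family had 10 of 13 genes measured, with 0 called for streptozotocin in either direction. Their median difference was -0.01 in WTA and 0.07 in WT2. Il15, which signals through the gamma chain, differed by 0.03 in WTA and 0.81 in WT2, and its WT2 control array was the lowest at 4.82. In the culture fit 1 of the 10, Il15ra, was lower in WTA. Other type 2 cytokines and receptors had 14 of 16 measured and 0 called in either comparison, with medians of 0.07 in WTA and -0.01 in WT2. Among them Il33, an alarmin that acts upstream of interleukin 13, differed by -0.66 in WTA and 2.52 in WT2, and Il31ra, a receptor chain for interleukin 31, by -0.82 in WTA and -0.48 in WT2. Of 6 other decoy receptors and cytokine antagonists 3 were measured, with 0 called. Il1r2, the decoy receptor of interleukin 1, differed by -0.28 in WTA and 0.76 in WT2, and Il1rn, the interleukin 1 receptor antagonist, by -0.89 in WTA and 0.26 in WT2.

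Markers of cells that carry these receptors or make the ligands were looked at beside these values. Of 17 leukocyte and macrophage markers 7 were measured, and their mean log2 level was 5.14 in WTA and 4.97 in WT2 with streptozotocin, against 4.96 in WTA and 5.09 in WT2 without it. Mrc1, Cd33 and Adgre1 were below the lower quartile on each array. Siglec1, at 5.24 to 5.47, and Cd22, at 5.71 to 5.82, lay between the lower quartile and the median. Cd74, at 6.30 to 6.46, and Csf1r, at 7.40 to 7.92, were above the median on each array. None of the 7 was 1.5-fold higher or lower with streptozotocin in either culture. Of 11 mast cell and type 2 lymphocyte markers 4 were measured. Ccr8, Kit and Ccr4 stayed below the array median on each array. The brighter probe set of Il1rl1 lay above it on the WT2 arrays (5.90 with streptozotocin, 6.45 without) and below it on the WTA arrays. Of 12 endothelial markers 6 were measured. Their mean log2 level was 6.63 in WTA and 5.30 in WT2 with streptozotocin, against 6.51 in WTA and 5.02 in WT2 without it, so it was higher in the culture in which Il4ra was higher. The gap came largely from Esm1, a proteoglycan of endothelial cells, which was higher in WTA by 4.84 with streptozotocin and by 5.01 without it and was the 1 gene of the list that limma called for culture. Without Esm1 the mean of the other 5 was still higher in WTA, by 0.63 with streptozotocin and 0.79 without it. Selp, Emcn and Thbd were higher in WTA under both treatments. Pecam1 and Sele were below the lower quartile on each array, and Thbd is also among the genes nearest to Il4ra. The part of these markers in the Il4ra values was not tested.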

How the data were processed

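RNA was extracted from cultured cells with Trizol and labelled with biotin by an Affymetrix procedure, per the labels' protocols. The authors deposited 1 table of log2 values (1 per probe set and array), which the submitters' processing notes say RMA produced. For its version, its settings and the genome build, the sources used here give nothing. RMA usually corrects background, equalises the arrays' distributions and summarises probes, so a shift of most genes would not be seen, and dim differences are compressed. Probe affinity differs, so placing a gene's level among the other probe sets of its array is only approximate.

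The accession in each identifier gave the gene name, through RefSeq (GRCm38.p6). Of 1246 probe sets 963 had a symbol (909 genes) and 283 had none here. Groups, replicate numbers and culture names came from sample titles. A number stands for 1 named cell sample in both arms and so pairs the arrays, and deviations from the group means correlated at 0.600 between arrays of the same number. 

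Treatment and culture were fitted with limma 3.58.1 in R 4.3.3 on all probe sets, with Benjamini-Hochberg adjustment and a threshold of 0.05. The fits were tested on simulated data with independent noise. For the treatment fit these data held no culture difference, so the test says nothing about how that difference affects its calls here. In the treatment fit without a block, the p-values rest on the difference between the cultures within each group. In the fits with both terms they rest on how far the streptozotocin difference varies between the cultures. Either may be partly technical. Neither is a spread between repeated arrays, since each culture had 1 array per treatment. Members, gene lists and tests were chosen with earlier results of these data known. The text names every member, per pathway list the brighter genes (mean above 5.86) with the largest positive and largest negative treatment difference, and the 3 genes nearest to each of the 2 widest-ranging members, of which 1 gene is not reported here. List genes with several probe sets were represented by the brightest. Promoter windows and their motifs were chosen after the values were seen. Alternatives were the replicate block, other normalizations, the brighter probe sets alone, an intensity trend and each array left out.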

Additional observations from a re-analysis of the deposited data

Results flagged for a closer look

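The streptozotocin difference had opposite signs in the 2 cultures for 5 genes. WTA minus WT2 of that difference was -2.76 for Il13ra2, -1.63 for Il13ra1 and -1.43 for Il4ra, and it was -0.21 for Il2rg and -0.13 for Il13. None of these was tested, since each culture had 1 array per treatment. Opposite signs were found for 47.7% of all probe sets, and the values of Il2rg and Il13 are small. At least 1.5-fold higher in WT2 and lower by any amount in WTA were 33 of 1246 probe sets (2.65%), among them Il4ra, Il13ra1 and Il13ra2. That these members are among them follows from the choice of the family, and nothing is read from it.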

How the results depend on the processing

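Limma's count for streptozotocin was 0 under the replicate block, median centring, quantile normalization, the filter on dim probe sets, the intensity trend and with each array left out, and 25 at an unadjusted p under 0.05. The block thus changed no call. The count for the culture, 28, was 37 after median centring, 35 with an intensity trend, 13 with culture as the sole term, 8 after quantile normalization, 2 among the 623 brighter probe sets and 210 at an unadjusted p under 0.05. It ranged from 0 to 18 with 1 array left out and culture as the sole term. It was 0 without the WTA streptozotocin array or the WTA control array, 18 without the WT2 streptozotocin array and 12 without the WT2 control array. In each of these fits the lone array of a culture is assumed to vary like the pair of the other, and no call of a member is read from them. The cause was not tested. With 1 array left out, the treatment difference ranged from -0.13 to 2.54 for Il13ra2, from -0.40 to 1.79 for Il4ra and from -0.09 to 0.94 for Il13ra1. Both other normalizations kept the sign of the 12 treatment and culture differences of the members. At a 2-fold gap, added after seeing the data, 7 of 1246 probe sets had the WT2 streptozotocin array alone on top, Il13ra2 among them. The WT2 control array was alone at the bottom for 14 of 1246, Il4ra among them. The family was chosen partly on these differences, so nothing is read from its members being there. The number of arrays limits the precision.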

Other observations

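Among receptor genes outside the family, Csf2ra, the alpha chain of the granulocyte-macrophage colony-stimulating factor receptor, ordered the arrays much as Il4ra did. Its log2 values were 7.14 in WTA and 6.65 in WT2 with streptozotocin, against 7.06 in WTA and 5.78 in WT2 without it. The brighter probe set of Il1rl1, the receptor of interleukin 33, ran the other way, with 5.24 in WTA and 5.90 in WT2 with streptozotocin and 5.08 in WTA and 6.45 in WT2 without it. Its identifier has the suffix that can mark shared probes. The dimmer probe set of Il1rl1 (mean 3.67) had streptozotocin differences of 0.17 in WTA and 0.24 in WT2. Neither gene was called by limma for treatment or culture, and both were picked after their values were seen.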
